A study of Astyanax mexicanus with 12 samples.

Results

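Livers of adult surface fish, the sighted river form of Astyanax mexicanus, were compared between wild-caught and laboratory fish, with 3 livers on each side. The members are the 6 surface libraries of the 12 in the series, chosen by their labels: surface wild 1, 2 and 3 and surface lab 1, 2 and 3. The other 6 libraries are wild-caught and laboratory cave fish titled Pachón, 3 livers each, and they enter the common model and the last comparison. All fish were fasted for 12 hours before dissection, and stranded poly(A) libraries were read as single reads of 75 bp. No genotype, transgene or treatment is given for any group. Sex, age, body size, place and date of capture, and the stock and diet of the laboratory fish are not stated in the labels. The comparison therefore holds habitat, food and ancestry together, and these cannot be told apart. Of 27420 genes in the table, 11560 were tested, those that reached 1 TPM in 3 or more surface libraries. TPM is the number of reads assigned to a transcript divided by its length and brought to 1 total per library, so levels of different genes can be compared. Read numbers cannot be recovered from it, and the depth is unknown.

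The liver takes up the products of digestion, breaks down amino acids, makes glucose, cholesterol and bile acids, and secretes most plasma proteins. Cells make cholesterol from acetyl-CoA through mevalonate and squalene, and in vertebrates the transcription factor SREBP2 raises the genes of this route when sterols in the endoplasmic reticulum are low. Secreted proteins fold in the endoplasmic reticulum, where the unfolded protein response adjusts the amount of chaperones. Enzymes that degrade amino acids supply carbon for glucose and fuel, and their messenger RNAs are known to vary with diet and fasting.

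Surface wild 3 stood apart from surface wild 1 and 2. On the first principal component of log2(TPM + 1), surface wild 1, 2 and 3 scored 90.5, 76.5 and 4.97, against -42.4, -55.8 and -73.8 for surface lab 1, 2 and 3. Spearman's rho across the 11560 genes, which share their library's depth and are not independent, was 0.87 between surface wild 1 and 2. It was 0.785 and 0.82 between surface wild 3 and these, and 0.835, 0.818 and 0.781 between surface wild 3 and the laboratory livers. Hepatocyte markers summed to 63890, 69600 and 49110 TPM in wild-caught livers, against 71560, 95410 and 66250 TPM in laboratory livers, so every library carried the labelled tissue. In bulk tissue, fewer cells of a type and less RNA per cell cannot be told apart. Nothing in the labels says whether the 3 livers of a group came from separate stocks, tanks or catches. So p-values measure the spread between livers within these groups, pooled over all 12 libraries, cave livers included. Below, values in TPM are listed in the order of libraries 1, 2 and 3, and differences are log2(TPM + 1) of wild-caught minus laboratory livers ± standard error, from limma over all 12 libraries. A gene is called higher or lower at a Benjamini-Hochberg adjusted p below 0.05 over the 11560 genes.

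**Figure D1:**
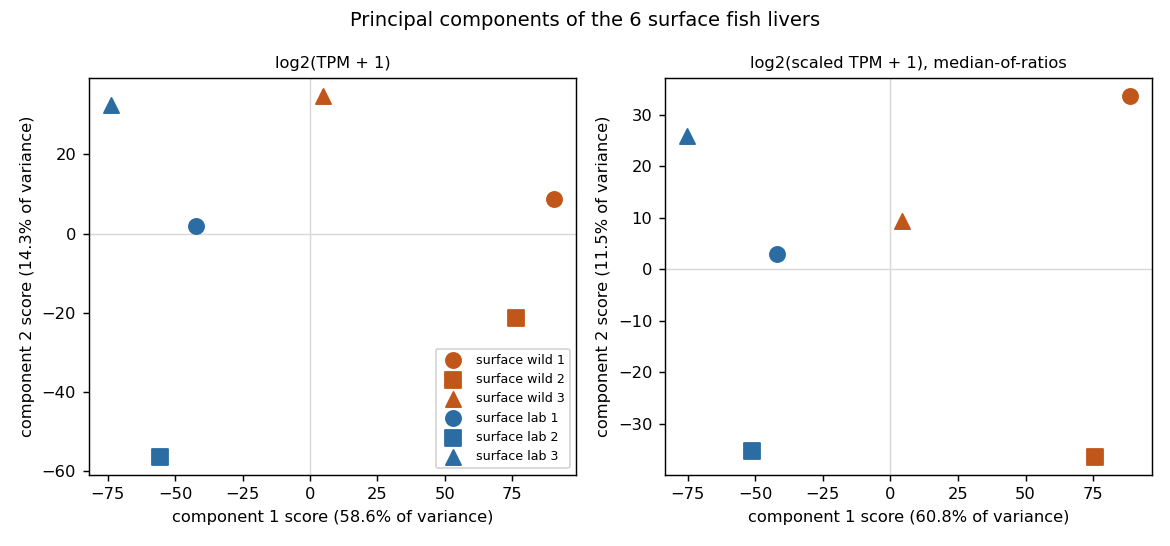
Scores of the 6 surface livers on the first 2 principal components, from log2(TPM + 1) on the left and after median-of-ratios scaling on the right. Orange marks wild-caught and blue laboratory livers, and surface wild 3, at 4.97 on component 1 of the left panel, lies between surface wild 1 and 2 at 90.5 and 76.5 and the laboratory livers at -42.4 to -73.8.

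In total 2446 genes were called (21.2%), 931 higher (8.05%) and 1515 lower (13.1%) in wild-caught livers. Of these, 829 higher and 1305 lower genes differed by at least 2-fold. The libraries of both groups did not overlap for 3724 genes (32.2%), 1273 higher (11%) and 2451 lower (21.2%), and for 35.9% of genes after median-of-ratios scaling. Surface wild 3 lay between the laboratory livers and surface wild 1 and 2 for 1530 of the 2446 called genes. The median log2 difference of all tested genes was -0.12, and median-of-ratios scaling, which centres each library on genes seen in all 12, moved it to -0.00084. That scaling gave 1266 higher (11%) and 1191 lower (10.3%) genes, 21.3% in all, and quantile scaling gave 1432 higher and 1245 lower, so the surplus of lower genes went with the TPM scale. On both scales 906 genes were called higher and 1185 lower. Single libraries mattered: 992, 1023 and 3673 genes were called without surface wild 1, 2 and 3, and 2040, 1668 and 1172 without surface lab 1, 2 and 3. The share called was 8.58, 8.85 and 31.8% without surface wild 1, 2 and 3, and 17.6, 14.4 and 10.1% without surface lab 1, 2 and 3. The share called higher was 2.53, 2.6 and 15.6% without surface wild 1, 2 and 3, and 6.06, 7 and 2.53% without surface lab 1, 2 and 3. The share called lower was 6.05, 6.25 and 16.2% without surface wild 1, 2 and 3, and 11.6, 7.43 and 7.6% without surface lab 1, 2 and 3. When replicate numbers were used as a block, the counts were 1544 higher (13.4%) and 1961 lower (17%), 30.3% in all. The 6 surface libraries fitted alone, with fewer libraries and without the cave livers to estimate the spread, gave 118 higher (1.02%) and 296 lower (2.56%) genes, 3.58% in all, and 407 of these 414 were among the 2446 with the same sign.

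Genes of sterol synthesis, complement, protein folding, polyamine synthesis and the immunoproteasome were among the 12 largest rises. The reductase gene hmgcra (ENSAMXG00000007971), which encodes the rate-limiting step of cholesterol synthesis, was at 186, 79.1 and 18.3 TPM in wild-caught livers, against 0.12, 0.04 and 0.43 TPM in laboratory livers (log2 difference 5.8 ± 0.82, adjusted p = 0.00193). All 3 wild-caught livers lay far above all 3 laboratory livers, and they differed among themselves, surface wild 1 being highest and surface wild 3 lowest. Complement component c4 (ENSAMXG00000012282), which acts in the classical and lectin pathways, was at 212, 370.2 and 259 TPM in wild-caught livers, against 39.2, 0.27 and 6.14 TPM in laboratory livers (log2 difference 5.26 ± 1.01, adjusted p = 0.00693). Its wild-caught livers were close together, and surface lab 1 was the highest of the laboratory livers. Ornithine decarboxylase, odc1 (ENSAMXG00000014026), the first enzyme of polyamine synthesis, was at 76.9, 61.6 and 27 TPM in wild-caught livers, against 2.62, 1.07 and 0.51 TPM in laboratory livers (log2 difference 4.52 ± 0.43, adjusted p = 0.000152). The immunoproteasome subunit psmb8a (ENSAMXG00000014118), part of the form of the proteasome that cuts peptides for antigen presentation, was at 51.5, 111 and 65.7 TPM in wild-caught livers, against 2.17, 1.85 and 3.2 TPM in laboratory livers (log2 difference 4.44 ± 0.54, adjusted p = 0.000782). Neither gene overlapped between groups, and psmb8a had little spread on either side. The cerebellin family gene cbln17 was among the most abundant of the risers, at 3542, 9438 and 2583 TPM in wild-caught livers, against 279, 513 and 17.3 TPM in laboratory livers (log2 difference 5.0 ± 1.37, adjusted p = 0.0262). Surface wild 2 was its highest library and surface lab 3 its lowest. The arginine methyltransferase prmt1 was at 303, 213 and 38.7 TPM in wild-caught livers, against 23.3, 5.95 and 1.94 TPM in laboratory livers (log2 difference 4.12 ± 0.83, adjusted p = 0.00868), with surface wild 3 nearest to the laboratory livers. The other 6 of the 12, msmo1, ebp, sqlea, lss, fdps and hspa5, are given with their pathways. Of the 12, 11 kept their call whichever surface library was left out, and 8 kept it in the 6 surface libraries alone. The exception to the leave-outs was cbln17 without surface wild 1, surface wild 2 or surface lab 3 (adjusted p up to 0.0905).

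**Figure D2:**
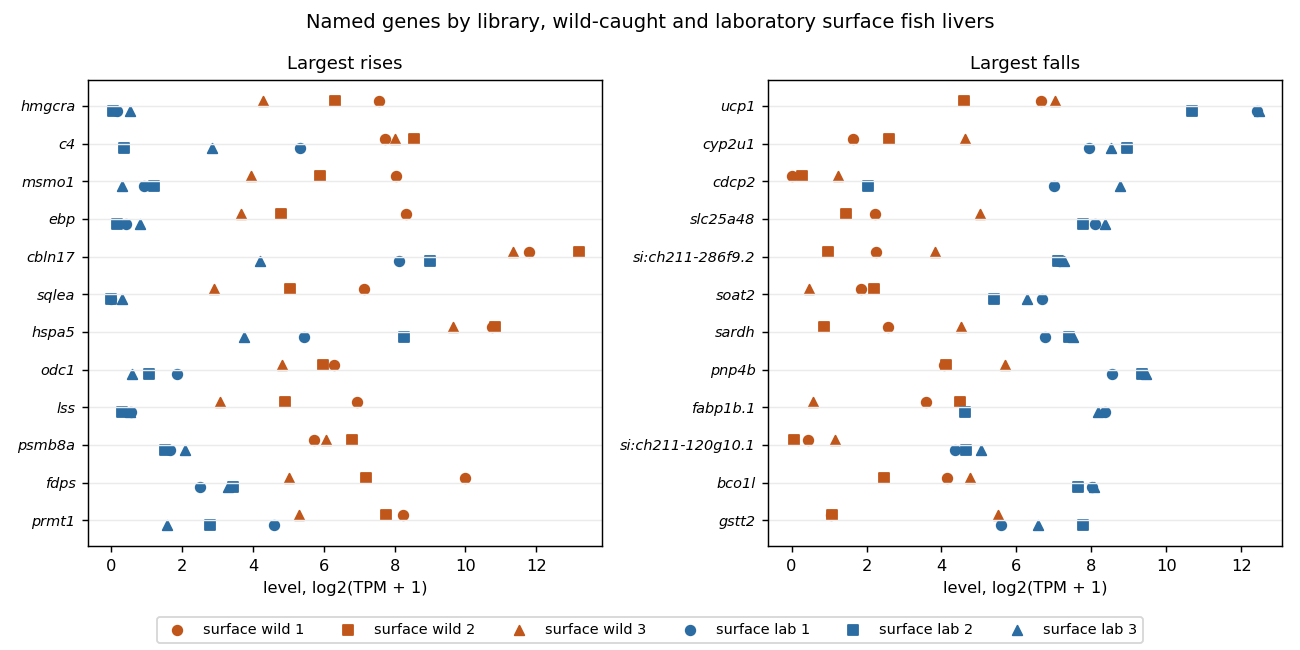
Level, as log2(TPM + 1), of the 12 genes with the largest rise (left) and the 12 with the largest fall (right) in each surface library. Orange symbols above each line are surface wild 1, 2 and 3 and blue symbols below it surface lab 1, 2 and 3, and the groups do not overlap for any gene shown, a condition of the choice.

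Among the 12 largest falls were a mitochondrial uncoupler, enzymes of fatty acid hydroxylation, cholesterol esterification and sarcosine breakdown, and a glutathione transferase. Uncoupling protein ucp1 (ENSAMXG00000005590), which lets protons cross the inner mitochondrial membrane in mammalian brown fat, was at 99.8, 23.3 and 130.3 TPM in wild-caught livers, against 5492, 1648 and 5699 TPM in laboratory livers (log2 difference -5.76 ± 0.66, adjusted p = 0.00054). It was an abundant transcript in every laboratory liver, and surface lab 2, the lowest of these, was still above all wild-caught livers. The fatty acid hydroxylase cyp2u1 was at 2.11, 5.11 and 23.9 TPM in wild-caught livers, against 242, 498 and 364 TPM in laboratory livers (log2 difference -5.51 ± 0.75, adjusted p = 0.00153). Sarcosine dehydrogenase, sardh, was at 4.97, 0.82 and 22.1 TPM in wild-caught livers, against 108, 168 and 183 TPM in laboratory livers (log2 difference -4.57 ± 0.73, adjusted p = 0.00322). Surface wild 3 was the wild-caught liver nearest to the laboratory livers for both. The purine nucleoside phosphorylase pnp4b was at 15.8, 16.6 and 50.5 TPM in wild-caught livers, against 371, 656 and 705 TPM in laboratory livers (log2 difference -4.49 ± 0.54, adjusted p = 0.000773), and the mitochondrial carrier slc25a48 at 3.72, 1.72 and 31.7 TPM in wild-caught livers, against 275, 218 and 326 TPM in laboratory livers (log2 difference -5.17 ± 0.76, adjusted p = 0.00247). In soat2, which esterifies cholesterol in liver and intestine, surface wild 3 was instead the lowest liver, at 2.64, 3.58 and 0.39 TPM in wild-caught livers, against 101, 41.3 and 77.1 TPM in laboratory livers (log2 difference -4.61 ± 1.09, adjusted p = 0.0156). The carotenoid-cleaving bco1l was at 16.9, 4.58 and 26.2 TPM in wild-caught livers, against 257, 198 and 269.5 TPM in laboratory livers (log2 difference -4.11 ± 0.53, adjusted p = 0.00116). Laboratory livers agreed closely for slc25a48 and bco1l, while surface wild 2 was the lowest liver for both. Fatty acid binding protein fabp1b.1 was at 10.9, 21.4 and 0.5 TPM in wild-caught livers, against 328, 23.9 and 290.1 TPM in laboratory livers (log2 difference -4.18 ± 1.09, adjusted p = 0.0218). Its group ranges nearly met, since surface wild 2 and surface lab 2 were close. The CUB domain gene cdcp2 (-5.44, adjusted p = 0.0123), the glutathione transferase gstt2 (-4.11, 0.0179) and 2 genes known by clone names, si:ch211-286f9.2 (-4.82, 0.000854) and si:ch211-120g10.1 (-4.13, 0.000437), made up the 12. Leaving out single libraries ended 2 of the 12 calls, fabp1b.1 without surface lab 1 or surface lab 3 (adjusted p up to 0.0764) and gstt2 without surface wild 1, surface wild 2 or surface lab 2 (adjusted p up to 0.0729), and 9 of the 12 passed in the 6 surface libraries alone.

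Most tested genes of cholesterol synthesis were higher in wild-caught livers. Of 26 tested genes of the route and its control, 18 were called higher and 0 lower, and the median log2 difference was 3.03, beside -0.12 over all genes. Over all genes 8.05% were called higher and 13.1% lower. In the mevalonate arm 6 of 9 genes were higher. Farnesyl diphosphate synthase, fdps, was at 1015, 145 and 31.3 TPM in wild-caught livers, against 4.67, 9.78 and 8.75 TPM in laboratory livers (log2 difference 4.32 ± 0.90, adjusted p = 0.00953). The decarboxylase mvda, which makes isopentenyl diphosphate, was at 117, 22.8 and 12.4 TPM in wild-caught livers, against 1.68, 1.93 and 1.42 TPM in laboratory livers (log2 difference 3.65 ± 0.61, adjusted p = 0.00392). The isomerase idi1 (3.69), the kinase pmvk (2.92) and the thiolase acat2 (3.1) were called higher as well. The synthase hmgcs1, at 501, 88.9 and 59.3 TPM in wild-caught livers, against 37.9, 95 and 20.3 TPM in laboratory livers, overlapped between groups and did not pass (adjusted p = 0.111). Neither hmgcrb (adjusted p = 0.506), the other reductase copy, nor ggps1 (0.248), which makes the precursor for prenylation, passed.

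From squalene to cholesterol, 9 of 10 tested genes were higher. Squalene epoxidase, sqlea, was at 140.3, 32.2 and 6.46 TPM in wild-caught livers, against 0, 0 and 0.23 TPM in laboratory livers (log2 difference 4.93 ± 0.82, adjusted p = 0.00392). Lanosterol synthase, lss, which closes the sterol rings, was at 122, 28.8 and 7.35 TPM in wild-caught livers, against 0.46, 0.22 and 0.43 TPM in laboratory livers (log2 difference 4.52 ± 0.78, adjusted p = 0.00471). The methylsterol oxidase msmo1 was at 263, 58.1 and 14.3 TPM in wild-caught livers, against 0.9, 1.3 and 0.23 TPM in laboratory livers (log2 difference 5.15 ± 0.83, adjusted p = 0.00322). The sterol isomerase ebp was at 319.9, 26.5 and 11.7 TPM in wild-caught livers, against 0.33, 0.12 and 0.76 TPM in laboratory livers (log2 difference 5.13 ± 0.92, adjusted p = 0.0052). These 4 were close to the bottom of the scale in every laboratory liver. Other steps were also called: nsdhl (4.03), hsd17b7 (3.85), tm7sf2 (3.49), sc5d (2.95) and, at the head of this arm, fdft1 (2.47). The reductase dhcr7 was at 41.6, 8.07 and 3.68 TPM in wild-caught livers, against 1.59, 4.67 and 2.95 TPM in laboratory livers and did not pass (adjusted p = 0.089). In all 10 genes surface wild 1 was highest, surface wild 2 next and surface wild 3 lowest of the wild-caught livers, and in 9 of the 10 surface wild 3 was above all laboratory livers. In the mevalonate arm 8 of 9 genes had the same order of wild-caught livers.

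Of 7 tested genes of sterol sensing and uptake, 3 were higher. The transcription factor gene srebf2, which encodes SREBP2, was at 42.6, 43.7 and 16.6 TPM in wild-caught livers, against 6.32, 6.8 and 4.83 TPM in laboratory livers (log2 difference 2.23 ± 0.51, adjusted p = 0.0141). The receptor gene ldlrb, for uptake of low-density lipoprotein, was at 33.7, 28.9 and 22.7 TPM in wild-caught livers, against 0.24, 0.22 and 2.57 TPM in laboratory livers (log2 difference 4.05 ± 0.71, adjusted p = 0.00492). Unlike the enzymes, ldlrb was nearly level across the wild-caught livers. NPC1L1, which takes up sterols at the cell surface, was the third (1.29). The SREBP retention factor insig1, at 114, 59.6 and 17.6 TPM in wild-caught livers, against 61.4, 17.1 and 68 TPM in laboratory livers, overlapped widely (adjusted p = 0.895), and insig2 (0.806), ldlra (0.828) and npc1 (0.144) did not pass. Across the leave-outs, members called higher numbered 15, 15 and 21 without surface wild 1, 2 and 3, and 16, 17 and 16 without surface lab 1, 2 and 3. With the replicate block 18 were higher, after median-of-ratios scaling 18, and in the surface libraries alone 11. Calls that depended on 1 library were acat2 without surface wild 1, surface wild 2, surface lab 1 or surface lab 3 (adjusted p up to 0.121), fdft1 without surface wild 1, surface wild 2, surface lab 1, surface lab 2 or surface lab 3 (adjusted p up to 0.106) and srebf2 without surface wild 1 or surface wild 2 (adjusted p up to 0.0532).

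**Figure D3:**
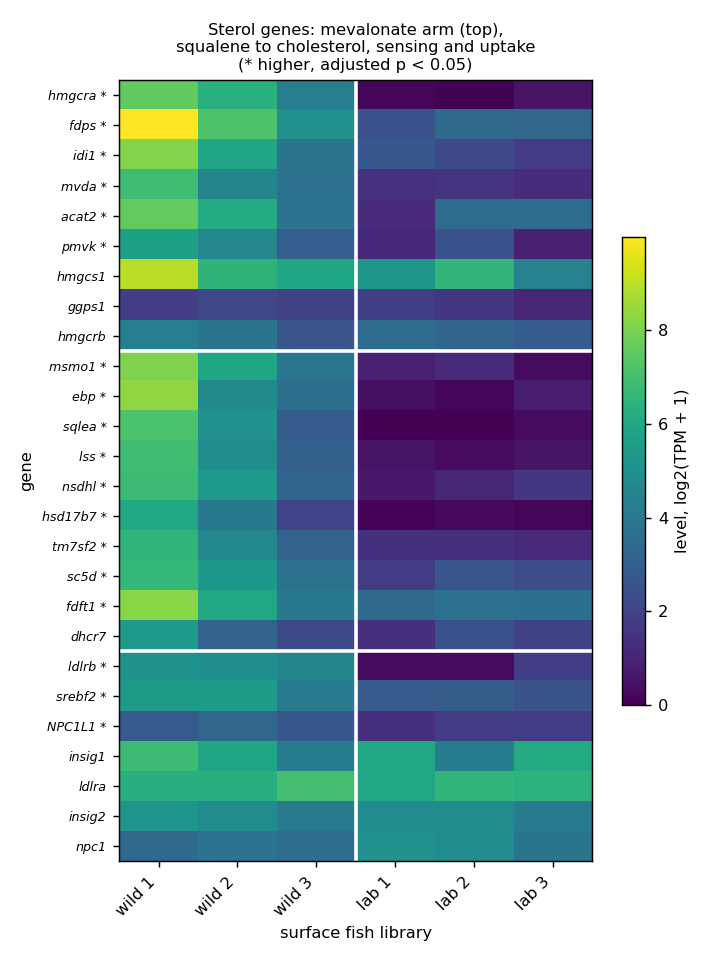
Level, as log2(TPM + 1), of the 26 tested genes of cholesterol synthesis, sensing and uptake in surface wild 1 to 3 (left of the white line) and surface lab 1 to 3 (right of it), with asterisks on the 18 called higher. Rows are grouped by role and ordered by difference, and the colour falls from surface wild 1 over surface wild 2 to surface wild 3 in all 10 genes of the middle block.

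Of 26 chaperones and folding enzymes of the endoplasmic reticulum, 11 were called higher in wild-caught livers and 0 lower. The list of the unfolded protein response had 14 of 49 tested members called higher and 0 lower, at a median of 1.27. Over all genes 8.05% were higher. The main chaperone of the compartment, hspa5 (ENSAMXG00000009012), was at 1717, 1825 and 794 TPM in wild-caught livers, against 42.5, 308 and 12.3 TPM in laboratory livers (log2 difference 4.59 ± 0.96, adjusted p = 0.00969). The related hyou1 was at 224, 139 and 60.4 TPM in wild-caught livers, against 5.04, 27 and 1.64 TPM in laboratory livers (log2 difference 4.03 ± 0.78, adjusted p = 0.0073). The chaperone hsp90b1 was at 1094, 1414 and 911 TPM in wild-caught livers, against 68.2, 569.7 and 72.2 TPM in laboratory livers (log2 difference 2.98 ± 0.72, adjusted p = 0.0168). In each of the 26 chaperone and folding genes surface lab 2 was the highest of the laboratory livers, and in 23 of them surface wild 3 was the lowest of the wild-caught livers. Surface wild 3 lay above all laboratory livers in 9 of the 26. The disulfide isomerase pdia6 was at 388, 393 and 246 TPM in wild-caught livers, against 14.2, 168 and 7.07 TPM in laboratory livers (log2 difference 3.61 ± 0.93, adjusted p = 0.021), so that surface lab 2 came near surface wild 3. Also higher were calr3b (3.31), manf (3.6), sdf2l1 (3.27) and the cochaperone dnajb9b (2.6). Of the sensors and factors, xbp1 (1.81, adjusted p = 0.0469) and atf4a (1.34, 0.0253) were called, and of the 15 degradation genes derl2 alone (1.27, 0.0333).

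The number of higher members of this list was 2, 2 and 22 without surface wild 1, 2 and 3, and 7, 24 and 2 without surface lab 1, 2 and 3. It was 22 after median-of-ratios scaling, 24 with the replicate block, where 2 were lower, and 1 in the surface libraries alone. In all leave-outs hspa5 and hyou1 passed. The other members named here lost their calls when 1 library was left out, hsp90b1 without surface wild 1, surface wild 2 or surface lab 3 (adjusted p up to 0.0613), pdia6 without surface wild 1, surface wild 2, surface lab 1 or surface lab 3 (adjusted p up to 0.074), calr3b without surface wild 1, surface wild 2, surface lab 1 or surface lab 3 (adjusted p up to 0.0778), manf without surface wild 1, surface wild 2, surface lab 1 or surface lab 3 (adjusted p up to 0.0785), sdf2l1 without surface wild 1, surface wild 2, surface lab 1 or surface lab 3 (adjusted p up to 0.092), dnajb9b without surface wild 1, surface wild 2 or surface lab 3 (adjusted p up to 0.065), xbp1 without surface wild 1, surface wild 2, surface lab 1, surface lab 2 or surface lab 3 (adjusted p up to 0.166), atf4a without surface wild 1, surface wild 2 or surface lab 3 (adjusted p up to 0.0887) and derl2 without surface wild 1, surface wild 2 or surface lab 3 (adjusted p up to 0.117).

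Genes that carry proteins into and out of the endoplasmic reticulum, and genes that load tRNA, also held higher members. The shares over all genes were 8.05% higher and 13.1% lower. Of 50 translocon, signal recognition and coat genes 15 were higher and 1 lower (median 1.25), with the translocon subunit sec61g at 1711, 1369 and 675 TPM in wild-caught livers, against 331, 458 and 202 TPM in laboratory livers (log2 difference 1.89 ± 0.44, adjusted p = 0.0147). Its groups did not overlap, and surface wild 3 and surface lab 2 were the nearest pair. The number called higher was 0, 1 and 40 without surface wild 1, 2 and 3, and 3, 24 and 0 without surface lab 1, 2 and 3, and it was 27 after median-of-ratios scaling, 31 with the replicate block and 0 in the surface libraries alone. Of 29 aminoacyl-tRNA synthetases, which load amino acids onto tRNA, and amino acid response genes, 10 were higher and 0 lower (median 1.24). The transporter heavy chain slc3a2b was at 44.2, 29.5 and 17.1 TPM in wild-caught livers, against 3.48, 3.52 and 3.55 TPM in laboratory livers (log2 difference 2.69 ± 0.31, adjusted p = 0.000589). Its laboratory livers were almost identical and all lay below surface wild 3. The synthetases sars (2.43, adjusted p = 0.0194), wars (2.52, 0.022) and tars (2.1, 0.0185) were called. For this list the count was 1, 1 and 16 without surface wild 1, 2 and 3, and 8, 9 and 1 without surface lab 1, 2 and 3, with 13 after median-of-ratios scaling, 15 with the block and 1 in the surface libraries alone. Single libraries ended the calls of sec61g without surface wild 1, surface wild 2 or surface lab 3 (adjusted p up to 0.0592), sars without surface wild 1, surface wild 2 or surface lab 3 (adjusted p up to 0.074), wars without surface wild 1, surface wild 2 or surface lab 3 (adjusted p up to 0.0845) and tars without surface wild 1, surface wild 2 or surface lab 3 (adjusted p up to 0.0674).

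Cytosolic ribosomal protein genes took 20.7, 21.0 and 24.3% of all TPM in wild-caught livers, against 15.5, 11.6 and 17.2% in laboratory livers. The groups did not overlap, and the two-sided exact permutation p was 0.1, the smallest that 3 against 3 allows. Of 80 tested genes 21 were called higher and 0 lower (median 0.58), beside 8.05% higher and 13.1% lower over all genes. After median-of-ratios scaling 4 were higher, a smaller share than the 11% over all genes on that scale. So the surplus of higher ribosomal protein genes went with the TPM scale. On TPM the count was 1, 2 and 6 without surface wild 1, 2 and 3, and 6, 2 and 10 without surface lab 1, 2 and 3. It was 0 in the surface libraries alone. A large subunit gene, rpl14, was at 7177, 6277 and 6892 TPM in wild-caught livers, against 4264, 3046 and 4653 TPM in laboratory livers (log2 difference 0.79 ± 0.19, adjusted p = 0.018), and its call was lost without surface wild 1 (adjusted p up to 0.0647). Proteasome and oxidative phosphorylation genes held few calls, 1 higher and 1 lower of 43, and 3 higher and 1 lower of 81, beside 8.05% higher and 13.1% lower over all genes. The cytochrome oxidase subunit cox6b1 was among them, at 157, 28.5 and 185 TPM in wild-caught livers, against 1.64, 8.2 and 7.51 TPM in laboratory livers (log2 difference 4.01 ± 0.69, adjusted p = 0.00468), and cox4i2, a subunit isoform linked to low oxygen in mammals, stood the other way at 11.1, 3.36 and 20.3 TPM in wild-caught livers, against 49.96, 82.4 and 152 TPM in laboratory livers (log2 difference -3.06 ± 0.53, adjusted p = 0.00487). Both calls held in every leave-out.

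**Figure D4:**
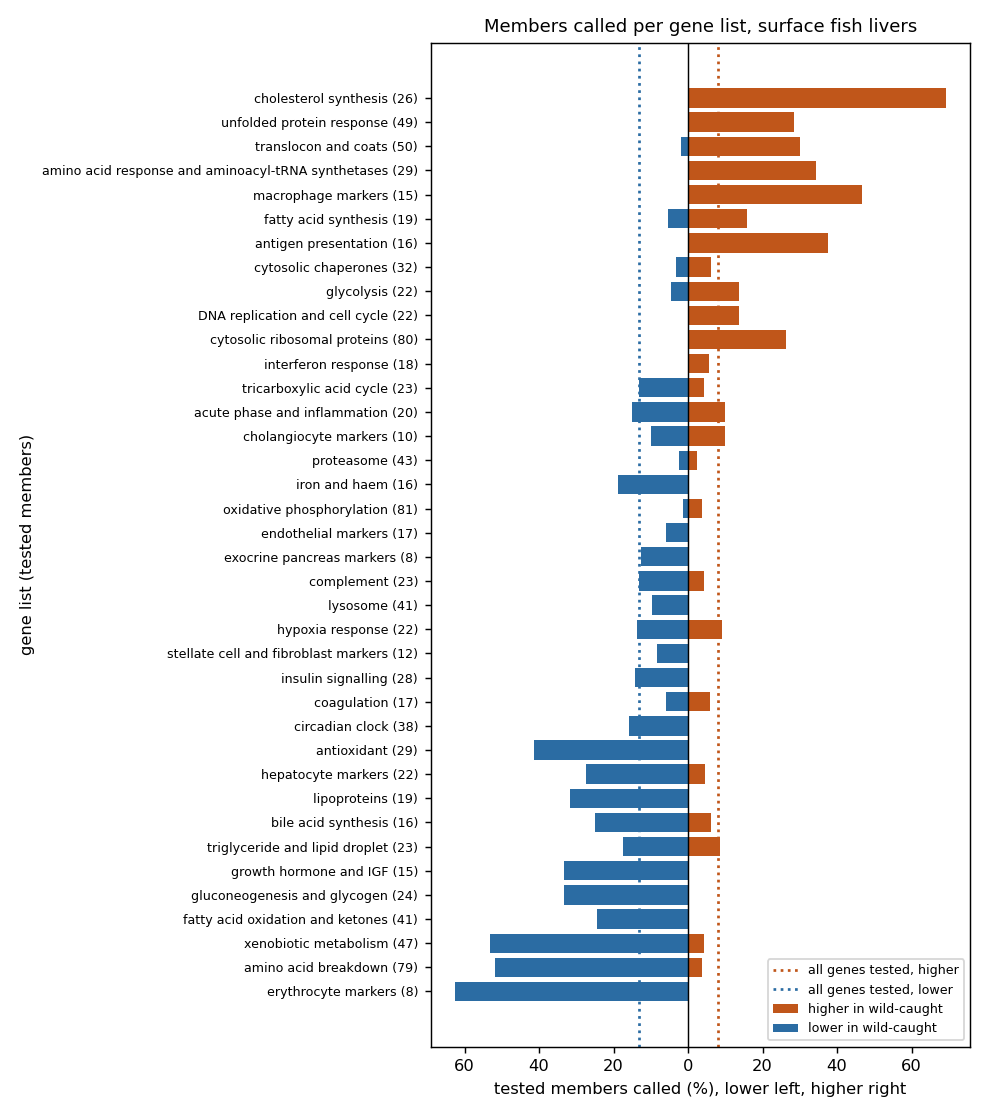
Percent of the tested members of each gene list called higher (orange, to the right) or lower (blue, to the left) in wild-caught surface livers, for lists with at least 8 tested members, ordered by median difference. Dotted lines mark the shares over all 11560 genes, 8.05% higher and 13.1% lower, and cholesterol synthesis on the right and erythrocyte markers, amino acid breakdown and xenobiotic metabolism on the left extend farthest beyond them.

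Of the lists of immune pathways, antigen presentation held the largest share of higher genes. Of 16 antigen presentation genes 6 were higher and 0 lower, beside 8.05% higher over all genes, and 4 of the 6 encode immunoproteasome subunits. Beside psmb8a these were psmb13a, at 19.6, 15.5 and 28.6 TPM in wild-caught livers, against 2.83, 0.84 and 3.19 TPM in laboratory livers (log2 difference 2.8 ± 0.37, adjusted p = 0.00132), psmb12 and psmb9a (log2 difference 1.48 ± 0.38, adjusted p = 0.0214). The subunit psmb12 was at 14.1, 24.3 and 20.9 TPM in wild-caught livers, against 2.69, 4.53 and 2.89 TPM in laboratory livers (log2 difference 2.24 ± 0.34, adjusted p = 0.00284). Groups did not overlap for any of these, and surface lab 2 had the most psmb9a of the laboratory livers. The class I light chain gene b2ml (1.4, 0.0398) and the peptidase erap2 (1.31, 0.0226) completed the 6. The subunit psmb10 (0.71), the proteasome activator genes psme1 (0.632) and psme2 (0.516) and the peptide transporter tap1 (0.911) did not pass. Members called numbered 5, 3 and 5 without surface wild 1, 2 and 3, and 5, 5 and 3 without surface lab 1, 2 and 3, and 3 in the surface libraries alone. Single libraries ended the calls of psmb9a without surface wild 2, surface lab 1 or surface lab 3 (adjusted p up to 0.0771), b2ml without surface wild 1, surface wild 2, surface wild 3, surface lab 2 or surface lab 3 (adjusted p up to 0.122) and erap2 without surface wild 2 or surface lab 3 (adjusted p up to 0.0846).

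Haptoglobin, hp (ENSAMXG00000035307), which binds free haemoglobin, was at 13564, 16222 and 4883 TPM in wild-caught livers, against 1380.4, 764 and 1320.1 TPM in laboratory livers (log2 difference 3.2 ± 0.53, adjusted p = 0.00382). Surface wild 3 was well below the other wild-caught livers and still above every laboratory liver. The acute phase list as a whole had 2 higher and 3 lower of 20 members. Its factor gene cebpd stood lower, at 39.8, 17 and 79.2 TPM in wild-caught livers, against 251, 313 and 235 TPM in laboratory livers (log2 difference -2.77 ± 0.62, adjusted p = 0.0125). Complement had 1 higher, c4, and 3 lower of 23, with a copy of the central component, c3b.2, at 132, 85.1 and 165 TPM in wild-caught livers, against 413, 463 and 392 TPM in laboratory livers (log2 difference -1.77 ± 0.38, adjusted p = 0.0109). So c4 and c3b.2 differed in opposite directions. Complement, coagulation and interferon genes were called at 4.35, 5.88 and 5.56% higher and 13, 5.88 and 0% lower, beside 8.05% and 13.1% over all genes. With the replicate block 3 complement genes were higher and 3 lower. Fibrinogen chain fgb was at 20273, 21895 and 8096 TPM in wild-caught livers, against 8093, 7359 and 3434 TPM in laboratory livers (log2 difference 1.38 ± 0.39, adjusted p = 0.0298), and was one of 1 higher and 1 lower of 17 coagulation genes, or 2 and 3 with the block. Surface wild 3 was level with surface lab 1 for fgb, and the call was lost without surface wild 1, surface wild 2 or surface lab 3 (adjusted p up to 0.113). Of 18 interferon response genes 1 was higher, xaf1, at 2.18, 45.8 and 3.59 TPM in wild-caught livers, against 0.31, 0 and 0.83 TPM in laboratory livers (log2 difference 2.72 ± 0.86, adjusted p = 0.0428). That gene was high in surface wild 2, and its call ended without surface wild 2 or any laboratory liver (adjusted p up to 0.114). Surface wild 2 was also well above the other wild-caught livers for rsad2, stat2 and irf3, which did not pass. For rsad2 the wild-caught livers were at 0.35, 77.2 and 7.6 TPM. By contrast, irf1b and parp12b were highest in surface wild 3 among wild-caught livers. Leaving out 1 library gave 1 to 2 higher and 1 to 4 lower acute phase genes, 1 to 3 higher and 1 to 3 lower complement genes, 0 to 2 higher and 0 to 4 lower coagulation genes and 0 to 2 higher interferon genes. The highest of these counts came without surface wild 3, save for the 3 higher complement genes, which came without surface wild 2.

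Enzymes of amino acid breakdown were lower in wild-caught livers more often than not. Of 79 tested members 41 were lower and 3 higher, at a median of -1.51, beside 13.1% lower over all genes. In phenylalanine and tyrosine breakdown 4 of 9 were lower. The first step, pah, was at 296, 301 and 185 TPM in wild-caught livers, against 929, 1318 and 758 TPM in laboratory livers (log2 difference -1.93 ± 0.38, adjusted p = 0.00736), and the aminotransferase tat at 457, 557 and 247 TPM in wild-caught livers, against 3558, 1923 and 2531 TPM in laboratory livers (log2 difference -2.7 ± 0.55, adjusted p = 0.00877). The cofactor-recycling reductase qdpra, at 99, 66 and 59.96 TPM in wild-caught livers, against 389, 351 and 358 TPM in laboratory livers (log2 difference -2.3 ± 0.31, adjusted p = 0.00135), was the most even across laboratory livers. In tryptophan breakdown 5 of 10 were lower, led by the dioxygenase tdo2b, at 35.6, 25.8 and 44.6 TPM in wild-caught livers, against 190.3, 531 and 417 TPM in laboratory livers (log2 difference -3.3 ± 0.49, adjusted p = 0.00252). Every wild-caught liver had less tdo2b than every laboratory liver by a wide gap. Of 15 branched-chain genes 9 were lower, among them the aminotransferase bcat1 (log2 difference -1.89 ± 0.37, adjusted p = 0.00788), the dehydrogenase subunit bckdha (-1.94) and acad8 (-2.02).

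Glycine, serine and one-carbon enzymes had 13 of 23 lower, beside 13.1% lower over all genes. In the chain from choline, bhmt, which methylates homocysteine with betaine, was at 678, 156 and 1013 TPM in wild-caught livers, against 3542, 4063 and 4776 TPM in laboratory livers (log2 difference -3.1 ± 0.55, adjusted p = 0.00499), and dmgdh at 40.7, 19 and 54.3 TPM in wild-caught livers, against 215, 363 and 550.3 TPM in laboratory livers (log2 difference -3.29 ± 0.51, adjusted p = 0.00293). Next to sardh, these act in sequence on betaine, dimethylglycine and sarcosine. The cytosolic serine hydroxymethyltransferase shmt1 was at 145, 174 and 282 TPM in wild-caught livers, against 695, 1159 and 822 TPM in laboratory livers (log2 difference -2.17 ± 0.33, adjusted p = 0.00284) and the mitochondrial shmt2 lay lower too (-2.29). In the group of glutamate, arginine, proline and urea 10 of 22 were lower and 3 higher. Liver glutaminase, gls2b, was at 0.8, 1.34 and 4.84 TPM in wild-caught livers, against 22.9, 22.6 and 21 TPM in laboratory livers (log2 difference -2.99 ± 0.39, adjusted p = 0.00116), and the proline pathway enzyme aldh4a1 at 18, 6.87 and 18.7 TPM in wild-caught livers, against 80.4, 101 and 68.3 TPM in laboratory livers (log2 difference -2.54 ± 0.40, adjusted p = 0.00293). Alanine aminotransferase gpt2l (-3.78) and the histidase hal (-1.99) were lower. Beside odc1, the 2 higher members were glutamine synthetase glulb, at 241, 147 and 62.3 TPM in wild-caught livers, against 24.3, 22.3 and 13.4 TPM in laboratory livers (log2 difference 2.69 ± 0.66, adjusted p = 0.018), and otc (log2 difference 1.91 ± 0.56, adjusted p = 0.0325). For both, surface wild 3 was the lowest wild-caught liver and lay above all laboratory livers.

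Lower members of the whole amino acid list numbered 31, 23 and 50 without surface wild 1, 2 and 3, and 41, 30 and 30 without surface lab 1, 2 and 3. The count was 38 after median-of-ratios scaling, 51 with the block and 15 in the surface libraries alone. Of the members named, the calls that ended with 1 library left out were glulb without surface wild 1, surface wild 2 or surface lab 3 (adjusted p up to 0.0715) and otc without surface wild 1, surface wild 2, surface lab 1 or surface lab 3 (adjusted p up to 0.114).

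Of 47 tested genes that modify foreign compounds, 25 were lower and 2 higher (median -1.51), beside 13.1% and 8.05% over all genes. Several belong to families of near copies, between which short reads can be split, so single copies are uncertain. Beside cyp2u1, the cytochrome cyp2v1 was at 4.26, 5.52 and 16.6 TPM in wild-caught livers, against 43.1, 193 and 44.4 TPM in laboratory livers (log2 difference -3.11 ± 0.67, adjusted p = 0.011). Of 35 conjugation genes 21 were lower, including the glucuronosyltransferase ugt1b2, at 7.06, 5.83 and 12.9 TPM in wild-caught livers, against 168, 40.4 and 125 TPM in laboratory livers (log2 difference -3.39 ± 0.48, adjusted p = 0.00184), and the glutathione transferase gsta.1, at 10.2, 4.73 and 19.3 TPM in wild-caught livers, against 133, 78.3 and 239 TPM in laboratory livers (log2 difference -3.65 ± 0.59, adjusted p = 0.00329). The groups did not overlap for either. The sulfotransferase sult1st6 (-2.98) and the epoxide hydrolase ephx1, at 0.48, 1.02 and 9.3 TPM in wild-caught livers, against 29.1, 47.8 and 41.1 TPM in laboratory livers (log2 difference -3.66 ± 0.63, adjusted p = 0.00437), were lower as well. The higher members were mgst3a (1.87) and nat10 (2.25), the second of which is an RNA acetyltransferase rather than a drug enzyme. The dioxin-inducible cyp1a did not pass (adjusted p = 0.893). Lower members numbered 12, 15 and 28 without surface wild 1, 2 and 3, and 21, 14 and 18 without surface lab 1, 2 and 3, 20 after median-of-ratios scaling and 6 in the surface libraries alone. The call of mgst3a ended without surface wild 2, surface lab 1 or surface lab 3 (adjusted p up to 0.0911).

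Antioxidant genes had 12 of 29 members lower and 0 higher (median -0.71), beside 13.1% and 8.05% over all genes. The secreted glutathione peroxidase gpx3 was at 1927, 2083 and 1765 TPM in wild-caught livers, against 3985, 5788 and 4303 TPM in laboratory livers (log2 difference -1.27 ± 0.23, adjusted p = 0.00509). The peroxiredoxin prdx5 was at 46.5, 42.3 and 45.3 TPM in wild-caught livers, against 119, 103 and 143 TPM in laboratory livers (log2 difference -1.41 ± 0.29, adjusted p = 0.0088), one of the most even genes within the wild-caught livers. The lipid hydroperoxidase gpx4a (log2 difference -2.31 ± 0.44, adjusted p = 0.007), prdx6 (log2 difference -1.97 ± 0.45, adjusted p = 0.0138) and the Nrf2 factor copy nfe2l2b (log2 difference -2.21 ± 0.48, adjusted p = 0.0113) were lower. Catalase, cat, was at 47.3, 51.3 and 309.6 TPM in wild-caught livers, against 298, 405 and 378 TPM in laboratory livers (log2 difference -1.96 ± 0.57, adjusted p = 0.0329), with surface wild 3 level with the laboratory livers, and its call was lost in every leave-out but that of surface wild 3 (adjusted p up to 0.126). Lower members numbered 6, 6 and 15 without surface wild 1, 2 and 3, and 9, 7 and 6 without surface lab 1, 2 and 3, 9 after median-of-ratios scaling and 1 in the surface libraries alone, and with the block 2 were higher.

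Fat-burning and lipoprotein genes held fewer, mostly lower, calls. Over all genes 13.1% were lower and 8.05% higher. Of 41 genes of fatty acid oxidation and ketones 10 were lower and 0 higher (median -1.25). The medium-chain dehydrogenase acadm was at 34.3, 31.4 and 159 TPM in wild-caught livers, against 273, 569 and 465 TPM in laboratory livers (log2 difference -2.88 ± 0.56, adjusted p = 0.00736), and cratb, which transfers acetyl groups to carnitine, at 1.12, 0.45 and 3.41 TPM in wild-caught livers, against 7.58, 10.5 and 18.2 TPM in laboratory livers (log2 difference -2.38 ± 0.43, adjusted p = 0.0056). Surface wild 3 was the highest wild-caught liver for both, between the other wild-caught livers and the laboratory livers. The ketone enzyme acat1 was lower (-2.32, 0.00865), and the carnitine palmitoyltransferases cpt1aa (0.197), cpt1ab (0.522) and cpt1b (0.204) did not pass. Lower members numbered 3, 4 and 24 without surface wild 1, 2 and 3, and 13, 3 and 8 without surface lab 1, 2 and 3, 16 with the block and 1 in the surface libraries alone. Of 19 lipoprotein genes 6 were lower, 3, 3 and 8 without surface wild 1, 2 and 3, and 6, 5 and 4 without surface lab 1, 2 and 3, and 2 in the surface libraries alone, and with the block 2 were higher. Apolipoprotein apoa2 was among the most abundant transcripts of the laboratory livers, at 5547, 7740.3 and 14879 TPM in wild-caught livers, against 29341, 52593 and 27487 TPM in laboratory livers (log2 difference -2.02 ± 0.38, adjusted p = 0.00668), and apoc1 was at 6432, 8743 and 11175 TPM in wild-caught livers, against 22876, 23533 and 17353 TPM in laboratory livers (log2 difference -1.3 ± 0.23, adjusted p = 0.00518). The lipid transfer gene cetp was at 57.7, 14.2 and 116 TPM in wild-caught livers, against 715, 262 and 529.6 TPM in laboratory livers (log2 difference -3.3 ± 0.69, adjusted p = 0.0098). For these 3 the groups did not overlap and surface wild 3 was the highest wild-caught liver.

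Bile acid synthesis had 4 of 10 enzyme genes lower, and 3 to 6 with 1 library left out, 6 being without surface wild 3. The sterol hydroxylase cyp8b2 was at 36.8, 72.7 and 216 TPM in wild-caught livers, against 1454, 1788 and 949 TPM in laboratory livers (log2 difference -4.0 ± 0.57, adjusted p = 0.00207). Of the other enzymes of the route, hsd3b7 (log2 difference -1.82 ± 0.38, adjusted p = 0.00929) and hsd17b4 (log2 difference -1.99 ± 0.46, adjusted p = 0.0141) were among the lower ones. The rate-limiting cyp7a1 was at 0.02, 0.14 and 0.02 TPM in wild-caught livers, against 3.7, 1.35 and 45.1 TPM in laboratory livers, did not pass (adjusted p = 0.156) and varied widely among laboratory livers. Its groups did not overlap, and its wild-caught values were near the bottom of the scale. With 0.1 in place of 1 added to TPM, cyp7a1 passed in limma (adjusted p = 0.0473), so its call depended on this setting. Among control and transport genes of bile acids, slc51a was called higher (log2 difference 1.67 ± 0.48, adjusted p = 0.0301). Its call ended without surface wild 1, surface wild 2, surface lab 1 or surface lab 3 (adjusted p up to 0.106). The tested nr1h4, nr0b2a, nr0b2b, fgfr4 and abcb11b did not pass. Of 19 fatty acid synthesis genes 3 were higher and 1 lower, beside 8.05% higher and 13.1% lower over all genes. Higher members numbered 1, 1 and 5 without surface wild 1, 2 and 3, and 0, 2 and 3 without surface lab 1, 2 and 3, and the lower call ended without surface wild 1, surface wild 2 or surface lab 2. The desaturase fads2, of polyunsaturated fatty acid synthesis, was at 129, 92.9 and 186 TPM in wild-caught livers, against 6.79, 4.38 and 48.3 TPM in laboratory livers (log2 difference 3.37 ± 0.98, adjusted p = 0.0316), with surface lab 3 the highest laboratory liver. Its call held in the full model and without surface lab 3, but ended without any other library (adjusted p up to 0.0983). The synthase fasn, at 122, 174 and 26.2 TPM in wild-caught livers, against 19.5, 3.79 and 58.5 TPM in laboratory livers, overlapped between groups (adjusted p = 0.0892). Of 23 lipid storage genes 2 were higher and 4 lower, shares not far from the 8.05% and 13.1% over all genes. Lower members numbered 0, 0 and 6 without surface wild 1, 2 and 3, and 2, 0 and 1 without surface lab 1, 2 and 3. The higher ones, fitm2, of droplet formation (log2 difference 1.8 ± 0.38, adjusted p = 0.0104), and agpat2, of triglyceride synthesis (log2 difference 1.57 ± 0.35, adjusted p = 0.0119), were called in every leave-out.

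Glucose and growth hormone genes gave smaller sets of lower genes. The shares over all genes were 13.1% lower and 8.05% higher. Of 24 genes of gluconeogenesis and glycogen 8 were lower and 0 higher (median -1.20). The glycogen primer gyg2 was at 0.54, 1.86 and 5.66 TPM in wild-caught livers, against 43, 67 and 20.1 TPM in laboratory livers (log2 difference -3.69 ± 0.56, adjusted p = 0.00273). The fructose bisphosphatase fbp1a was at 2.92, 1.58 and 3.29 TPM in wild-caught livers, against 9.96, 22.8 and 11.6 TPM in laboratory livers (log2 difference -2.08 ± 0.34, adjusted p = 0.00357). Wild-caught livers lay below laboratory livers throughout for both. The carboxykinase pck1, at 29.3, 14 and 280.3 TPM in wild-caught livers, against 389.6, 132 and 246 TPM in laboratory livers, did not pass (adjusted p = 0.385), and surface wild 3 was within the laboratory range. Lower members numbered 4, 2 and 11 without surface wild 1, 2 and 3, and 5, 5 and 4 without surface lab 1, 2 and 3, 5 after median-of-ratios scaling and 3 in the surface libraries alone. Of 15 genes of the growth hormone and IGF axis 5 were lower, with igfals, a carrier of circulating IGF, at 21.9, 18.3 and 214 TPM in wild-caught livers, against 305, 309 and 296 TPM in laboratory livers (log2 difference -2.73 ± 0.75, adjusted p = 0.0263). Surface wild 3 was far above the other wild-caught livers and close to the laboratory livers. The call of igfals ended without any library but surface wild 3 (adjusted p up to 0.103), and that list's count was 0, 1 and 6 without surface wild 1, 2 and 3, and 2, 0 and 1 without surface lab 1, 2 and 3, and 2 after median-of-ratios scaling.

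Of 38 clock genes 6 were lower (15.8%) and 0 higher, a share close to the 13.1% lower over all genes. The cryptochrome cry3b was at 0.32, 0.29 and 1.64 TPM in wild-caught livers, against 27.4, 5.49 and 30.7 TPM in laboratory livers (log2 difference -3.45 ± 0.52, adjusted p = 0.00284), with all wild-caught livers below all laboratory livers. The receptor rorab was lower as well (log2 difference -1.52 ± 0.34, adjusted p = 0.0126). The core activator clocka (0.0563) and per1a (0.481) did not pass, and the hour of dissection is not stated in the labels. Lower clock genes numbered 4, 3 and 9 without surface wild 1, 2 and 3, and 6, 4 and 2 without surface lab 1, 2 and 3. Some oestrogen-responsive genes split the laboratory livers: the yolk precursor vtg3 was at 8.97, 78.3 and 78.3 TPM in wild-caught livers, against 543, 5.8 and 619.6 TPM in laboratory livers, and nots at 3.49, 16.4 and 11.6 TPM in wild-caught livers, against 167, 10.1 and 371 TPM in laboratory livers. Neither passed (adjusted p = 0.417 and 0.0632), and surface lab 2 lay with or below the wild-caught livers. The secreted kinase family gene fam20cl, at 9.58, 26.7 and 9.71 TPM in wild-caught livers, against 148, 28.9 and 208 TPM in laboratory livers, showed the same division and was called (log2 difference -2.74 ± 0.68, adjusted p = 0.0184), but not without surface wild 1 or surface lab 3 (adjusted p up to 0.0676). The receptor genes esr2a, at 6.21, 3.73 and 17.25 TPM in wild-caught livers, against 32.3, 35.1 and 35.7 TPM in laboratory livers (log2 difference -2.05 ± 0.46, adjusted p = 0.0132), and esr2b (-1.80, 0.036) were called lower. Surface lab 2 did not stand apart for either. The esr2a call ended without surface wild 2 (adjusted p up to 0.0508), that of esr2b without surface wild 1, surface wild 2, surface lab 1 or surface lab 2 (adjusted p up to 0.13). Sex is not given, and its part in these values was not tested.

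Lists of markers of other cells differed in their calls. Among endothelial markers only esama was called (log2 difference -0.73, adjusted p = 0.0328), and among stellate cell and fibroblast markers only sparc (-1.27, 0.0236), both lower. The esama call ended without surface wild 1, surface wild 2, surface lab 1 or surface lab 2 (adjusted p up to 0.0994). That of sparc ended without surface wild 2 or surface lab 3 (adjusted p up to 0.0895). Over all genes 8.05% were called higher and 13.1% lower. Erythrocyte markers had 5 of 8 tested members lower and summed to 31.2, 32.7 and 69.7 TPM in wild-caught livers, against 238, 201 and 396 TPM in laboratory livers. The groups did not overlap, with hbba2, a haemoglobin chain, at 2.96, 16.4 and 13.5 TPM in wild-caught livers, against 93.2, 63.1 and 98.4 TPM in laboratory livers (log2 difference -3.08 ± 0.56, adjusted p = 0.00541). The anion exchanger of red cells, slc4a1a, was at 1.74, 1.38 and 1.72 TPM in wild-caught livers, against 9.27, 7.31 and 20.5 TPM in laboratory livers (log2 difference -2.23 ± 0.39, adjusted p = 0.00475). The number lower was 5, 5 and 6 without surface wild 1, 2 and 3, and 5, 5 and 5 without surface lab 1, 2 and 3, and 3 in the surface libraries alone. Macrophage markers had 7 of 15 members higher, while their sum overlapped, at 107, 137 and 88.8 TPM in wild-caught livers, against 121, 151 and 29 TPM in laboratory livers. The oxidase subunit ncf1 was at 4.41, 11 and 2.21 TPM in wild-caught livers, against 0.51, 1.57 and 0.37 TPM in laboratory livers (log2 difference 1.76 ± 0.45, adjusted p = 0.0207), and the receptor csf1ra, at 2.78, 50.4 and 1.71 TPM in wild-caught livers, against 78, 120.3 and 0.77 TPM in laboratory livers, did not pass (adjusted p = 0.397). The overlap of the sums rested on csf1ra, which held 78 of the 121 TPM in surface lab 1 and 120.3 of the 151 TPM in surface lab 2. In surface wild 2 it held 50.4 of the 137 TPM. Higher macrophage markers numbered 0, 3 and 8 without surface wild 1, 2 and 3, and 5, 3 and 0 without surface lab 1, 2 and 3, 12 with the block and 0 in the surface libraries alone. The ncf1 call ended without surface wild 1, surface wild 2 or surface lab 3 (adjusted p up to 0.0697). The part of blood and immune cells in the other results was not tested.

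By summed markers, surface wild 3 carried the most pancreas RNA, which in fish can lie within or beside the liver. The 8 exocrine markers summed to 2661, 1272 and 12340 TPM in wild-caught livers, against 4020, 1706 and 5277 TPM in laboratory livers, with the protease ela3l at 193, 289.8 and 2046 TPM in wild-caught livers, against 590.2, 182 and 749 TPM in laboratory livers. The marker cuzd1.2 went the other way, at 0.03, 1.82 and 0.01 TPM in wild-caught livers, against 4.04, 1.44 and 3.26 TPM in laboratory livers. It was called lower (log2 difference -1.39 ± 0.37, adjusted p = 0.0231), though its groups overlapped. That call ended without surface wild 1, surface lab 1 or surface lab 3 (adjusted p up to 0.0903). Islet markers summed to 1.75, 1.13 and 158 TPM in wild-caught livers, against 17.8, 5.86 and 40.3 TPM in laboratory livers, of 15 genes in the table with 3 tested. Insulin, ins, was at 0.16, 0 and 49.2 TPM in wild-caught livers, against 3.3, 0.18 and 16.9 TPM in laboratory livers, and glucagon, gcga, at 0.37, 0 and 45.7 TPM in wild-caught livers, against 1.03, 0.42 and 8.42 TPM in laboratory livers. These were highest in surface wild 3 and next highest in surface lab 3, and neither gene passed (adjusted p = 0.921 and 0.825). The islet granule gene chga was listed at 0 in all 6.

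Beyond pancreas, genes with the largest gap between surface wild 3 and the nearer of the other wild-caught livers were ranked, as a description with no test. Glucokinase, gck, which traps glucose in liver cells and is induced by insulin in mammals, stood at 17, 8.72 and 971 TPM in wild-caught livers, against 12.8, 0.66 and 17.2 TPM in laboratory livers. The intestinal fatty acid binding protein fabp2 stood at 29.4, 1.6 and 589 TPM in wild-caught livers, against 0, 0.98 and 1.04 TPM in laboratory livers. In both genes surface wild 3 exceeded every other surface liver. High fabp2 was not confined to it, since cave livers were at 577, 130 and 8.05 TPM in wild-caught fish, against 0.77, 0.31 and 0.44 TPM in laboratory fish. The other tested intestine markers, anpepa (-1.06), anpepb (-1.92) and tm4sf5 (-1.34), were called lower in wild-caught livers. All of these calls ended without surface wild 1. The intestine marker vil1, not tested, was at 0.08, 0.08 and 0.12 TPM in wild-caught livers. For the thyroid hormone activating dio2, at 3.53, 0.85 and 139.8 TPM in wild-caught livers, against 61.8, 219 and 227 TPM in laboratory livers, and glutamine synthetase glula, at 4.99, 11.4 and 348 TPM in wild-caught livers, against 101, 146 and 35.3 TPM in laboratory livers, surface wild 3 was instead near or above laboratory levels. Below the other wild-caught livers, ISYNA1, which makes inositol, was at 418, 168 and 11.2 TPM in wild-caught livers, against 35, 49.4 and 18.8 TPM in laboratory livers, and the glycolytic eno1a at 802, 403 and 38.5 TPM in wild-caught livers, against 24.5, 15.3 and 28.4 TPM in laboratory livers. Here surface wild 3 was in or near the laboratory range. The growth factor binding protein igfbp1b, known to be induced by fasting, was at 48.3, 686 and 4.18 TPM in wild-caught livers, against 263, 85.4 and 79.4 TPM in laboratory livers, lowest in surface wild 3 and highest in surface wild 2. What set surface wild 3 apart was not tested.

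The wild-caught minus laboratory difference was set against the same difference in cave fish, which share no library with it. In cave fish 174 genes were called higher (1.51%) and 3838 lower (33.2%), 34.7% in all, at a median of -0.69 over all genes, so the direction of small changes there depends on the TPM scale. After median-of-ratios scaling the cave counts were 435 higher (3.76%) and 332 lower (2.87%), 6.63% in all. Of the 931 genes higher in surface fish 31 were also higher in cave fish, which is 3.33% of the surface list and 17.8% of the cave list, and 57 were called lower there. Of the 1515 lower genes 794 were lower in cave fish as well, 52.4% of the surface list and 20.7% of the cave list, and 13 were called higher. After median-of-ratios scaling 91 of 1266 higher and 99 of 1191 lower genes were shared, 7.19% and 8.31% of the surface lists and 20.9% and 29.8% of the cave lists, and 3 of the higher and 23 of the lower genes were called the opposite way in cave fish. The difference between forms, tested as an interaction, passed for 495 genes (4.28%), and for 231 (2%) after that scaling. Without surface wild 1, 2 or 3 it passed for 225, 204 or 2876 genes, and without surface lab 1, 2 or 3 for 196, 1028 or 183.

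Hepatic lipase and glutamate dehydrogenase went opposite ways in the forms. Hepatic lipase, lipca, which hydrolyses lipoprotein lipids, was at 1.67, 2.38 and 54 TPM in wild-caught livers, against 117, 88.7 and 37.1 TPM in laboratory livers. In cave fish it was at 266, 248 and 189 TPM in wild-caught livers, against 0.33, 0.94 and 0.86 TPM in laboratory livers. Surface wild 3 was within the surface laboratory range, and the cave groups were far apart. The log2 differences were -3.22 ± 0.90 in surface and 7.11 ± 0.90 in cave fish (difference -10.33 ± 1.27, adjusted p = 0.00334). The surface call for lipca ended without surface wild 1, surface wild 2, surface lab 1 or surface lab 2 (adjusted p up to 0.109). Mitochondrial glutamate dehydrogenase, glud1a, was at 44.5, 72.1 and 124 TPM in wild-caught livers, against 304, 209 and 279 TPM in laboratory livers, and in cave fish at 99.98, 65 and 167 TPM in wild-caught livers, against 0, 0.14 and 0 TPM in laboratory livers. Laboratory cave livers were at or near 0, whereas laboratory surface livers were the highest of all. Its differences were -1.81 ± 0.43 in surface and 6.64 ± 0.43 in cave fish (difference -8.45 ± 0.60, adjusted p = 7.89e-05), and its surface call ended without surface wild 1 (adjusted p up to 0.0587). The uric acid pathway gene urahb (-2.37 ± 0.61 and 2.03 ± 0.61) and the neuropilin nrp1b (-2.09 ± 0.52 and 1.89 ± 0.52) also changed in opposite directions. Their surface calls depended on single libraries, urahb without surface wild 1, surface wild 2 or surface lab 1 (adjusted p up to 0.0851) and nrp1b without surface wild 1, surface wild 2, surface lab 2 or surface lab 3 (adjusted p up to 0.061).

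The hmgcra, ucp1 and c4 genes also differed between forms, with no call in cave fish, and cox6b1 with a call in both. For hmgcra, cave livers were at 0.02, 6.26 and 0.02 TPM in wild-caught fish, against 0.87, 2.17 and 0.31 TPM in laboratory fish (-0.01 ± 0.82, beside 5.80 ± 0.82 in surface fish; difference 5.82 ± 1.16, adjusted p = 0.0243). Low levels of hmgcra were shared by laboratory surface livers and most cave livers. For ucp1 the cave values were 369, 493 and 604 TPM in wild-caught livers, against 1574, 592 and 611 TPM in laboratory livers (-0.79 ± 0.66, beside -5.76 ± 0.66; difference -4.97 ± 0.93, adjusted p = 0.0184). Wild-caught surface livers had less ucp1 than any cave liver. For c4 the cave livers were at 14.4, 78 and 77 TPM in wild-caught fish, against 277, 109.6 and 199.9 TPM in laboratory fish (-2.01 ± 1.01, beside 5.26 ± 1.01; difference 7.27 ± 1.43, adjusted p = 0.0225). For cox6b1, called in both forms, the differences were 4.01 ± 0.69 in surface and -2.23 ± 0.69 in cave fish, of opposite sign. After median-of-ratios scaling the form difference was 5.41, adjusted p = 0.0473 for hmgcra, -5.83, adjusted p = 0.0203 for ucp1, 6.30, adjusted p = 0.0473 for c4 and 5.39, adjusted p = 0.021 for cox6b1. Without surface wild 2 that of hmgcra did not pass (adjusted p up to 0.0502).

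**Figure D5:**
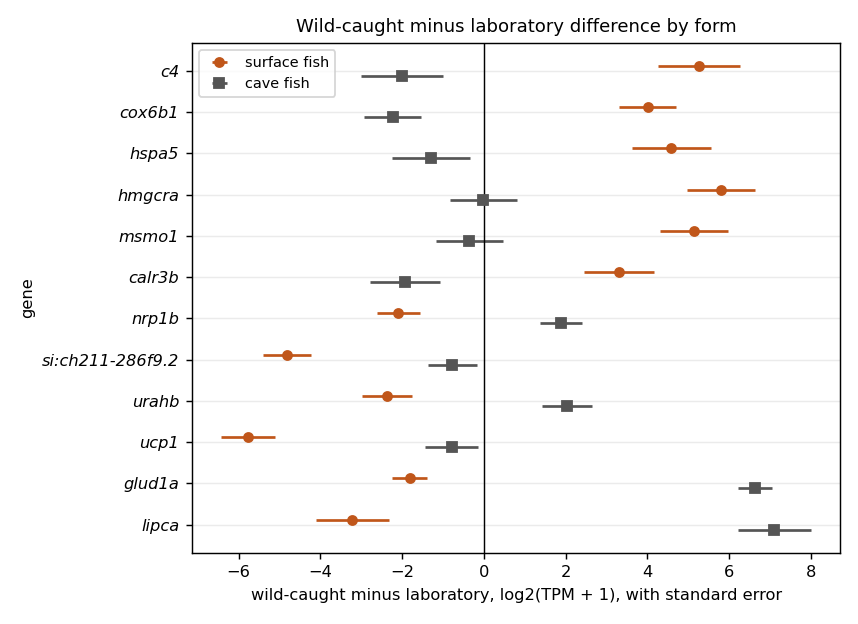
Wild-caught minus laboratory difference, in log2(TPM + 1) with its standard error, in surface fish (orange circles) and cave fish (grey squares) for the 12 genes with the largest difference between forms among those past both thresholds. At the bottom lipca stands at -3.22 in surface and 7.11 in cave fish, and at the top c4 at 5.26 in surface and -2.01 in cave fish.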

How the data were processed

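RNA of 12 livers was measured, and the 6 surface livers are compared here, with the cave livers in the same model. The authors deposited TPM per gene and library, estimated with RSEM after alignment with STAR 2.6.1c and demultiplexing with bcl2fastq 2.18, per the submitters' processing notes. For the genome build, the annotation and the RSEM version, the entry is not given in the sources used here. Hence coordinates and sequences are left out. TPM keeps no depth, and each column summed to the total of a TPM table.

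From these values log2(TPM + 1) was computed and tested with limma 3.58.1 in R 4.3.3, with 4 group means over 12 libraries, trended eBayes and two-sided p adjusted by Benjamini-Hochberg (threshold 0.05) over 11560 genes. Differences between forms were tested as an interaction. The procedure was tested on simulated data in which genes were independent and no library lay apart. That test does not show how calls behave in these libraries, where surface wild 3 lay apart. Named genes were the 12 largest rises and falls (called on both scales, at least 10 TPM in the higher group, a log2 difference of at least 1, no overlap), up to 4 called members of each list with the smallest adjusted p, the 10 most abundant genes per group, 8 genes each way by the gap of surface wild 3, and 6 each way by form difference. Other list members, and genes that did not pass, were chosen after their values were seen. 1 member of the cholesterol list is not reported here and not counted in that list. Members and lists were chosen with earlier results of these data known. Symbols come from the table, which names 18362 genes, and 2087 tested genes have none.

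Residuals of surface libraries with equal replicate numbers correlated at 0.159, 0.109 and 0.276, all above 0.1, so the numbers were also used as a block. Surface wild 2 and surface lab 1, of unequal numbers, correlated at 0.141, and the other unequal pairs below 0. For each gene the residuals of the 3 livers of a group sum to 0. Positive values in equal pairs therefore force negative values among unequal pairs, and these are no separate evidence of a pairing. This pairing comes from the data, since the labels do not say what a number marks. Alternatives were scaling, filter, pseudocount, robust eBayes, surface libraries alone, the block and each library left out.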

Additional observations from a re-analysis of the deposited data

Results flagged for a closer look

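The wild-caught minus laboratory difference differed between surface and cave fish, by the interaction test in limma, for 12 named genes. The surface difference minus the cave difference, on the log2(TPM + 1) scale, was 7.27 for c4, 6.24 for cox6b1, 5.88 for hspa5, 5.82 for hmgcra, 5.50 for msmo1 and 5.25 for calr3b. It was -10.33 for lipca, -8.45 for glud1a, -4.97 for ucp1, -4.40 for urahb, -4.04 for si:ch211-286f9.2 and -3.98 for nrp1b.

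After median-of-ratios scaling the difference between forms no longer passed for hspa5 (adjusted p = 0.073), msmo1 (0.0514) and calr3b (0.0797). With 1 library left out it was lost for hspa5 and calr3b without surface wild 1, surface wild 2, surface lab 1 or surface lab 3 (adjusted p up to 0.0792 and 0.0891). It was lost for msmo1 without surface wild 2, surface lab 1 or surface lab 3 (up to 0.0695), for hmgcra without surface wild 2 (up to 0.0502) and for si:ch211-286f9.2 without surface wild 1, surface lab 1 or surface lab 3 (up to 0.0607). The other 7 passed in every leave-out.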

How the results depend on the processing

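Most counts of called genes given here moved by over 1.5 times, and the cause was not tested. Genes called higher numbered 1432 after quantile scaling and 595 with no filter. The surface libraries alone gave 414 calls, 118 higher and 296 lower, and with median-of-ratios scaling 365, 169 and 196. With the replicate block, that is, with the pairing by number, 3505 genes were called, a move of less than 1.5 times. Of these 1544 were higher, and 1721 were higher with the block and median-of-ratios scaling. The block ended no call of a named gene. Leaving out 1 library gave 992 to 3673 calls, 293 to 1806 higher and 699 to 1867 lower. Without surface wild 3 and with median-of-ratios scaling 3858 genes were called, 2055 higher. Without surface wild 1 and 2, an alternative chosen after seeing the data, 141 were called, 46 higher and 95 lower. Differences between forms passed for 231 genes after median-of-ratios scaling, 192 after quantile scaling, 143 at 5 TPM, 2324 with the block, 1308 without surface wild 3 and with median-of-ratios scaling, 91 without surface wild 1 and 2, and 183 to 2876 with 1 library left out. The surplus of lower over higher calls turned to 1266 higher and 1191 lower genes after median-of-ratios scaling, each a move of less than 1.5 times. Of the genes named by rule, 0 of 158 called ones changed sign under these alternatives, and 17 of 30 that did not pass, igfbp1b and gcga among them, changed sign in at least 1. Of other genes that did not pass, ela3l and ins changed sign with 1 library left out. TPM holds no read counts, so depth could not be used to set precision.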

Other observations

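Called glycolysis genes were split. Enolase eno1a (log2 difference 3.34 ± 0.83, adjusted p = 0.0183), the glyceraldehyde phosphate dehydrogenase copy gapdhs (log2 difference 1.93 ± 0.53, adjusted p = 0.0252) and the aldolase aldocb (log2 difference 2.37 ± 0.72, adjusted p = 0.037) were higher in wild-caught livers. The liver pyruvate kinase pklr was lower, at 8.59, 17.1 and 41 TPM in wild-caught livers, against 58.9, 150.2 and 57.2 TPM in laboratory livers (log2 difference -2.06 ± 0.55, adjusted p = 0.0233). Of 22 glycolysis genes 3 were higher and 1 lower, beside 8.05% higher and 13.1% lower over all genes. Higher members numbered 0, 1 and 6 without surface wild 1, 2 and 3, and 3, 0 and 1 without surface lab 1, 2 and 3. Single libraries ended the calls of eno1a without surface wild 1, surface wild 2 or surface lab 2 (adjusted p up to 0.0671), gapdhs without surface wild 1, surface wild 2, surface lab 2 or surface lab 3 (adjusted p up to 0.0668), aldocb without surface wild 1, surface wild 2, surface lab 2 or surface lab 3 (adjusted p up to 0.123) and pklr without surface wild 1, surface wild 2 or surface lab 2 (adjusted p up to 0.0908).

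In the lysosome list 4 of 41 genes were lower and 0 higher (9.76% lower, beside 13.1% over all genes), with the protease ctsf at 21, 11.2 and 63 TPM in wild-caught livers, against 287, 134 and 277 TPM in laboratory livers (log2 difference -3.1 ± 0.58, adjusted p = 0.0061). The bile duct marker anxa4 was at 45.7, 34.4 and 55.6 TPM in wild-caught livers, against 148, 222 and 153 TPM in laboratory livers (log2 difference -1.92 ± 0.33, adjusted p = 0.00434), and both calls held in every leave-out. The bile duct marker epcam was instead higher (log2 difference 1.67 ± 0.45, adjusted p = 0.0239). Its call ended without surface wild 1, surface lab 2 or surface lab 3 (adjusted p up to 0.0732). The markers krt18a.1, krt18b, krt8, krt4, hnf1ba, hnf1bb, tm4sf4 and cldn15lb did not pass. Of 22 genes of DNA replication and the cell cycle 3 were higher and 0 lower, beside 8.05% higher and 13.1% lower over all genes. Higher members numbered 8 with the replicate block and 1 to 5 with 1 library left out. The count was 1 without surface wild 2 or surface lab 3 and 5 without surface wild 3 or surface lab 2. The ribonucleotide reductase subunit rrm1 was at 6.9, 2.44 and 1.21 TPM in wild-caught livers, against 0.26, 0.59 and 0.44 TPM in laboratory livers (log2 difference 1.46 ± 0.36, adjusted p = 0.018). Among the most abundant transcripts, fabp10a, the liver fatty acid binding protein, was at 31927, 11055 and 27425 TPM in wild-caught livers, against 39098, 15205 and 48765 TPM in laboratory livers and did not pass (adjusted p = 0.44). The gene ENSAMXG00000036364, which has no symbol in the table, was at 57.6, 1249 and 1323 TPM in wild-caught livers, against 17275, 1546 and 29199 TPM in laboratory livers (log2 difference -4.32 ± 1.26, adjusted p = 0.0321), with surface lab 2 near the wild-caught livers. Its call ended without surface wild 1, surface lab 1 or surface lab 3 (adjusted p up to 0.117). Of 20 muscle and skin markers in all, 2 reached the level for testing. Myoglobin, mb, was at 37.7, 1.72 and 18.9 TPM in wild-caught livers, against 0.1, 0.15 and 1.28 TPM in laboratory livers (log2 difference 3.17 ± 0.86, adjusted p = 0.0244), and its call ended without surface wild 1, surface lab 1 or surface lab 2 (adjusted p up to 0.0977). The myosin light chain mylpfa, not tested, was at 0, 0 and 0.17 TPM in wild-caught livers, against 9.39, 0 and 0.39 TPM in laboratory livers, with surface lab 1 highest.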
